A study of Mus musculus with 9 samples.

Results

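Chemokine ligands are the genes whose symbols start with Ccl, Cxcl, Xcl or Cx3cl followed by a number. The deposited tissue table, sham quadriceps set against sham heart, listed 39 of them among 24537 gene names, on 50 RefSeq transcripts. The smaller table of TAC against sham quadriceps, which holds secreted proteins, listed 9 of them among 587 genes. C57Bl6 mice (C57Bl/6JCrl in the study's methods) underwent transverse aortic constriction (TAC), a ligature around the aortic arch that loads the left ventricle with pressure, or a sham operation at 8 weeks of age. Tissue was taken 12 weeks later, and the study used the model for heart failure with muscle wasting. The 3 groups were quadriceps after TAC, quadriceps after sham surgery and heart after sham surgery, with 3 libraries each. The TAC libraries carry the numbers 1, 2 and 4 in the table of counts, whereas the sample labels run to 3. No source used here says whether a library came from 1 animal or several, so p-values measure the spread between these samples. Library totals ranged from 23383452 to 48999600 counts, and the total of TAC library 4 was not used here. The tissue labels were checked with 2 genes. Myh4, the heavy chain of fast muscle fibres, had 559634 to 726121 counts in quadriceps and 32 to 50 in heart, and Myh6, the atrial and adult ventricular heavy chain, had 59 to 82 in quadriceps and 768767 to 933029 in heart.

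Chemokines are small secreted proteins that bind to G protein-coupled receptors on leukocytes and guide them along gradients. Inflammatory members such as Ccl2 or Cxcl9 are induced by cytokines and recruit monocytes or T cells, whereas homeostatic members such as Cxcl12 or Ccl21a are made continuously and place cells within tissues. In muscle and heart they come largely from fibroblasts, endothelial cells and macrophages rather than from the muscle cells themselves. Atypical receptors bind the same ligands without classical signalling and remove them.

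Many of the genes stand in clusters. In the GENCODE vM21 annotation of GRCm38 (mm10), 38 of the 39 had a position and 29 lay in 7 clusters whose members were at most 1000000 bases apart. Cxcl9, Cxcl10 and Cxcl11 share a stretch of 44.1 kb on chromosome 5. Ccl2, Ccl7, Ccl11, Ccl12, Ccl8 and Ccl1 lie within 270.1 kb on chromosome 11, and Ccl5, Ccl9, Ccl6, Ccl3 and Ccl4 within 138.9 kb further along the same chromosome. Some overlap a gene on the opposite strand: Cxcl16 overlaps Zmynd15, Ccl25 overlaps Elavl1, Ccl27a overlaps Il11ra1, Cxcl10 and Cxcl11 overlap Art3, Ccl6 overlaps E230016K23Rik, Ccl19 and Ccl21a overlap 4930578G10Rik, and Ccl2 overlaps Gm17268. Whether reads were counted by strand is not given in the sources used here, so counts of these genes may hold reads of their partner. Ccl21a and Ccl27a have near-identical copies, and their counts are uncertain for that reason. Ccl21b, Ccl21c and Ccl27b were at 0 in all 6 libraries.

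The promoters of Cxcl9, Ccl9, Ccl6 and Ccl21a are shown since these are the 4 ligands whose TAC libraries all lay below the sham libraries. Each runs from 250 bases before to 50 bases after the annotated start, 5′ to 3′ on the gene's strand, from RefSeq on GRCm38.p6. The capitals mark matches to the motifs searched. Cxcl9 lies on the minus strand at chr5:92328030-92328329, Ccl9 on the minus strand at chr11:83578587-83578886, Ccl6 on the minus strand at chr11:83593038-83593337, and Ccl21a on the minus strand at chr4:42773942-42774241.
Cxcl9: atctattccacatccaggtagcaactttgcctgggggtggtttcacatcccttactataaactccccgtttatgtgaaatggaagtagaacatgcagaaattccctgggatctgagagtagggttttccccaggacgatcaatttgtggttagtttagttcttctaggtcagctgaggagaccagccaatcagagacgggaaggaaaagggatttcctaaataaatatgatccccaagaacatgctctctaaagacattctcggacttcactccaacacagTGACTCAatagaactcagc
Ccl9: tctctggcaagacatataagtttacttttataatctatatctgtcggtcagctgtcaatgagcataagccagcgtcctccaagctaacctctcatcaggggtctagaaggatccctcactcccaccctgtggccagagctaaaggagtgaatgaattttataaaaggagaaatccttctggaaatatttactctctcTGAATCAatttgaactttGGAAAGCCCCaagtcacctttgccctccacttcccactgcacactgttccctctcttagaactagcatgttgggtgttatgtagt
Ccl6: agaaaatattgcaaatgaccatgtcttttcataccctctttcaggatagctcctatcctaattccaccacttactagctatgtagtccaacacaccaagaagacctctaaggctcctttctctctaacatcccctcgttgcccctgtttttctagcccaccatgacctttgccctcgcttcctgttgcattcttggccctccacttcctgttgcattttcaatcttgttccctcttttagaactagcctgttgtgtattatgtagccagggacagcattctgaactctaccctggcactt
Ccl21a: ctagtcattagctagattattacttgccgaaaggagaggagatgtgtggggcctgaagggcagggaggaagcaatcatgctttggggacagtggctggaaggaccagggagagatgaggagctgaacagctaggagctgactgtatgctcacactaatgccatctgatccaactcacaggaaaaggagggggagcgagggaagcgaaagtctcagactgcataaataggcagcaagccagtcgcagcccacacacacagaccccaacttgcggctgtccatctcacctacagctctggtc

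A total of 4 motifs were searched on both strands: the GAS element as TTCNNNGAA, the core of the ISRE as GAAANNGAAA, the AP-1 site as TGANTCA, and the kappaB site by its usual consensus. Of 32851 promoters of this length, 8.30% held a GAS match, 3.44% an ISRE core match, 8.46% a kappaB match and 7.81% an AP-1 match. RefSeq promoters were matched for 27 of the 39 ligands, 33 promoters in all, and 2 of these held the GAS element, 3 the ISRE core, 8 the kappaB site and 7 the AP-1 site. The Cxcl9 promoter held 1 match, to AP-1, and the Ccl9 promoter held 1 to AP-1 and 1 to kappaB. No motif matched in the Ccl6 or Ccl21a promoter, which says only that these letters are not in these windows. Ccl9 and Ccl6, adjacent on chromosome 11, shared a run of 13 bases, gccctccacttcc, which starts 14 bases before the start in Ccl9 and 55 bases before it in Ccl6. A match is a description of these letters and no evidence of binding.

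Quadriceps after TAC was compared with quadriceps after sham surgery to ask whether the muscle's own chemokine messages changed. Of the 9 listed ligands, 2 fell and none rose at an adjusted p under 0.05 (edgeR's quasi-likelihood test, Benjamini-Hochberg adjustment over 586 genes). The T cell attractant Cxcl9 and the myeloid chemokine Ccl9 fell. Over all genes tested, 11.9% were called lower and 17.7% higher. The study's criterion asks for at least 1 on the log2 scale and a p under 0.05, taken here before adjustment. By it 3 ligands fell and none rose, against 12.6% lower and 11.4% higher over all genes. The median log2 fold change of the 9 ligands was -0.66, and that of all 586 genes was 0.03. The most abundant ligands, Cxcl12, Ccl11 and Cxcl14, were not called in either direction. All values below are normalized counts, scaled by the TMM method over the listed genes, unless raw counts are named.

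**Figure D1:**
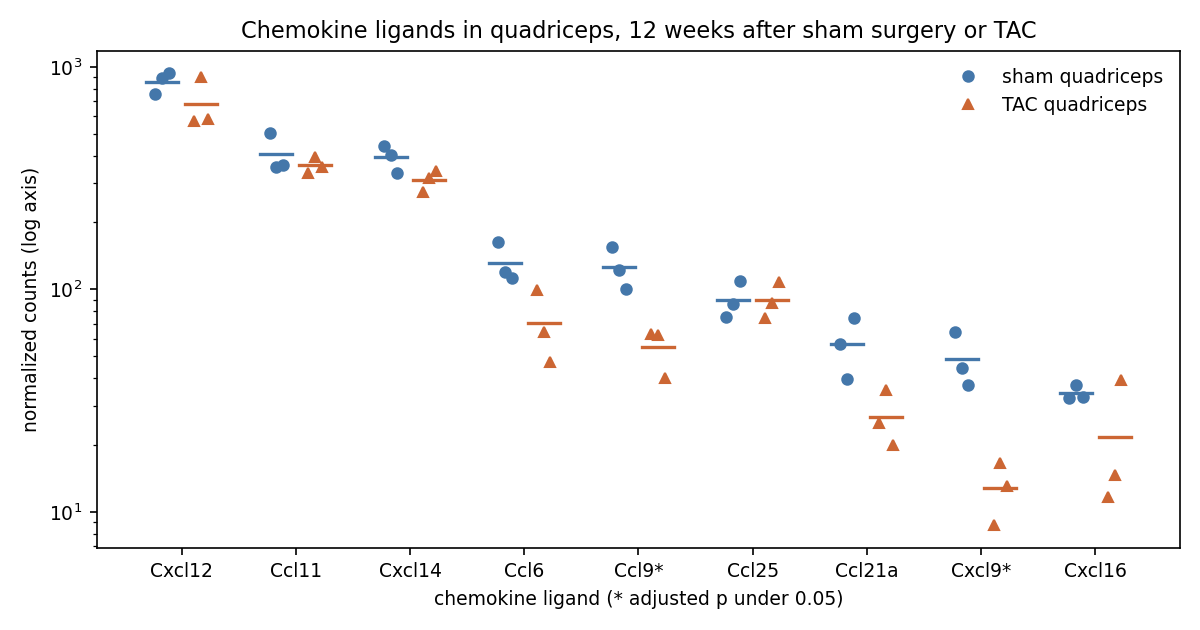
Normalized counts of the 9 chemokine ligands in each quadriceps library, on a log axis, with sham libraries as circles, TAC libraries as triangles and bars at the group means (n = 3 each). The TAC libraries lie below all sham libraries for Ccl6, Ccl9, Ccl21a and Cxcl9, and overlap with them for the other 5 ligands.

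Cxcl9 is induced by interferon gamma and attracts activated T cells through the receptor Cxcr3. Its normalized count was 64.2, 44.5 and 37.1 after sham surgery, and it was 8.72, 16.6 and 13.0 after TAC (libraries 1, 2 and 4). Every TAC library was below every sham library, on raw counts of 27 to 79 in sham and 9 to 17 in TAC. The mean was 48.6 ± 14.0 (SD, n = 3) after sham surgery and 12.8 ± 3.96 after TAC, with a log2 fold change of -1.93 (SE 0.38, adjusted p = 0.00997, edgeR). Without sham library 1 the call was lost (adjusted p = 0.0503).

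Ccl9 and Ccl6 are made by myeloid cells and act on Ccr1. Ccl9 had 155.3, 122.3 and 100.4 normalized counts after sham surgery against 63.0, 62.6 and 40.1 after TAC. The groups did not overlap. Its mean was 126.0 ± 27.6 (SD, n = 3) after sham surgery and 55.2 ± 13.1 after TAC, with a log2 fold change of -1.19 (SE 0.29, adjusted p = 0.0189, edgeR). The call was lost without sham library 1 (adjusted p = 0.0821) or sham library 2 (adjusted p = 0.0563). Ccl6 had 163.4, 119.2 and 112.7 normalized counts after sham surgery and 99.8, 64.6 and 47.1 after TAC. These groups did not overlap either, but the log2 fold change of -0.90 (SE 0.32) did not pass (adjusted p = 0.0670, edgeR).

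Ccl21a, a ligand of Ccr7, had 56.9, 39.4 and 74.2 normalized counts after sham surgery. After TAC it had 25.2, 35.2 and 20.03. The groups did not overlap, and the log2 fold change was -1.07 (SE 0.35). Ccl21a met the study's criterion but not the adjusted threshold (adjusted p = 0.0511, edgeR). In all, 4 of the 9 ligands had every TAC library below every sham library, and 21.2% of all genes did. With 3 against 3 libraries the exact two-sided permutation test of a single gene cannot go below 0.1, the value for each of these 4.

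Cxcl16, a membrane-bound ligand of Cxcr6 that also acts as a scavenger receptor, split the TAC group. Its normalized count was 32.5, 37.4 and 33.0 after sham surgery, 11.6 and 14.7 in TAC libraries 1 and 2, and 39.1 in TAC library 4. TAC library 4 thus exceeded all sham libraries, and the log2 fold change of -0.66 (SE 0.47) was not called (adjusted p = 0.335, edgeR). Without TAC library 4 it was called lower (adjusted p = 0.0259). The same library had the highest raw count of the fat cell gene Adipoq among the TAC libraries, 707 against 540 and 117, while the sham libraries ranged from 94 to 1183. Of the 4 adipocyte markers listed, all but Lpl were highest in TAC library 4 among the TAC libraries. Lpl was lowest there, with 10661 raw counts against 24051 and 32768. The part of fat tissue in the values of Cxcl16 and the other ligands was not tested.

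None of the homeostatic ligands listed, Ccl21a, Cxcl12, Cxcl14 and Ccl25, was called at the adjusted threshold. Of them, Ccl21a alone met the study's criterion, as given above. Cxcl12, which retains stem cells and lymphocytes through Cxcr4, had 753.5, 889.3 and 936.3 normalized counts after sham surgery and 573.4, 898.3 and 582.8 after TAC. TAC library 2 lay within the sham range, and the log2 fold change was -0.33 (SE 0.24, adjusted p = 0.350, edgeR). Cxcl14, a conserved epithelial and stromal chemokine, had 443.0, 400.2 and 335.5 normalized counts against 273.1, 316.1 and 342.5, a log2 fold change of -0.34 (adjusted p = 0.293, edgeR). Ccl11, or eotaxin, attracts eosinophils through Ccr3. It had 505.6, 353.7 and 361.6 normalized counts after sham surgery and 334.2, 394.4 and 355.5 after TAC, with a log2 fold change of -0.17 (adjusted p = 0.607, edgeR). Ccl25, the thymic and intestinal ligand of Ccr9, had 75.6, 85.9 and 108.6 normalized counts after sham surgery and 74.6, 87.1 and 108.2 after TAC. Its group means differed by less than the spread between libraries (log2 fold change 0.0036, SE 0.26, adjusted p = 0.993, edgeR). The counted Ccl25 transcript, NR_033527, is annotated as non-coding. The coding transcript NM_009138 had 83, 80 and 76 raw counts in the sham quadriceps libraries of the tissue table, against 93, 85 and 79 for NR_033527.

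Pf4, the platelet and macrophage chemokine Cxcl4 under an older symbol, is outside the symbol rule. It had 103, 63 and 70 raw counts after sham surgery and 20, 32 and 38 after TAC and fell (log2 fold change -1.45, SE 0.32, adjusted p = 0.0155, edgeR). No chemokine receptor was in the TAC table.

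The scaling sets the level of these values. TMM centres the fold changes of the listed genes, whereas division by library totals moved the median of all 586 genes to -0.63 on the log2 scale. With totals, which leave out TAC library 4, the log2 fold change was -2.61 for Cxcl9 (adjusted p = 0.0118) and -1.67 for Ccl9 (adjusted p = 0.0145, edgeR). Then 7 of the 9 ligands were called lower, all but Ccl11 and Ccl25, with a ligand median of -1.35. With the same totals 180 of all 586 genes were called lower and 20 higher. The share of each ligand among the 9 within a library does not depend on the scaling. Cxcl9 made up 1.77% to 2.85% of the counts of the 9 ligands in the sham libraries and 0.596% to 0.880% in the TAC libraries. Ccl9 made up 4.78% to 6.90% and 2.59% to 4.30%. Ccl11 made up 16.9% to 22.5% of these counts in sham libraries and 20.9% to 23.0% in TAC libraries, which overlap. Per transcript length, it made up 33.4% to 39.9% of the 9 ligands in sham libraries and 40.9% to 41.1% in TAC libraries. These do not overlap (exact two-sided permutation p = 0.1, the smallest possible here). A share also rises where other ligands of the 9 fall, and Ccl11 itself was not called.

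Markers of other cells moved too. Of 17 macrophage markers, 6 were in the TAC table and 4 of them fell, led by Itgam (log2 fold change -1.74), C1qc (-1.41) and Lyz2 (-1.25). Their summed normalized count was 934.8 to 1351 in sham libraries and 431.6 to 548.2 in TAC libraries. Of 9 fibroblast markers, 8 were listed and 7 fell, led by the collagens Col3a1 (-3.95), Col1a1 (-3.31) and Col1a2 (-2.51), with sums of 11155 to 14574 and 6662 to 9851. Of the 3 endothelial markers listed, 2 rose, Vwf (0.84) and Pecam1 (0.63), and neither was called with library totals. The third, Egfl7, was not called (0.07) but was called lower with library totals (-0.94, adjusted p = 0.0333, edgeR). None of the listed markers of these 3 cell types was at 0 in all libraries. In whole tissue, fewer cells of a type and less RNA per cell cannot be told apart, and the part of these cells in the ligand values was not tested. Among inflammatory cytokines, 5 of 19 were listed and 1 fell, Il15 (-1.39), and among targets of NF-kappaB and interferon, 2 of 16 were listed and 1 fell, the adhesion molecule Vcam1 (-1.01). The only neutrophil marker listed, Lcn2, which other cells also make, rose from 6 to 9 raw counts to 73 to 205 (log2 fold change 4.05). None of 4 listed proteases that trim or shed chemokines was called.

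**Figure D2:**
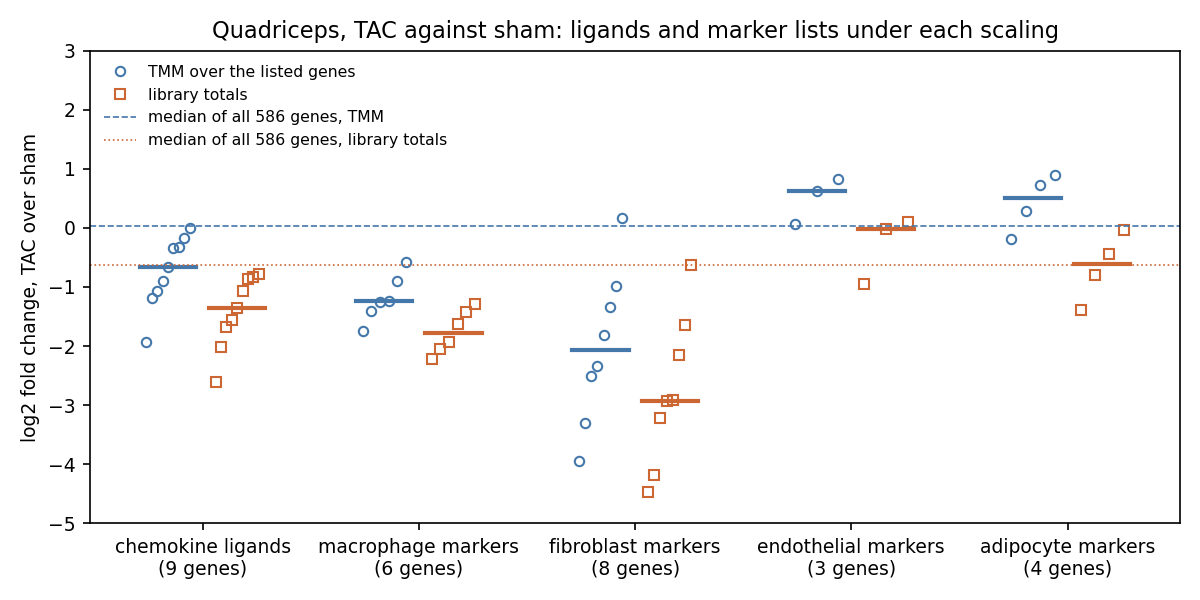
Log2 fold changes of TAC over sham quadriceps for the 9 chemokine ligands and for the listed markers of macrophages, fibroblasts, endothelial cells and adipocytes, with TMM (circles) and with library totals (squares), bars at list medians and dashed and dotted lines at the medians of all 586 genes. The ligand median is -0.66 with TMM and -1.35 with totals, between the medians of the endothelial and macrophage markers.

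The sham tissues were compared to find which ligand messages were higher in muscle and which in heart. Transcript levels of different genes are given per length, as deposited RPKM. Each ligand is counted by its transcript with the highest summed count. The ligand messages of the 2 tissues differed in makeup. In heart, Cxcl12 was first with 28.5 ± 2.05 RPKM (SD, n = 3), or 46.7% of the summed RPKM of the 39 ligands. In quadriceps, Ccl11 was first with 12.8 ± 4.40 RPKM, or 31.7%, and Cxcl12 came as the third with 4.95 ± 0.22 RPKM, or 12.9%. Cxcl14 was second in both, with 9.54 ± 1.77 RPKM in heart and 7.16 ± 1.79 in quadriceps, ranges that overlap. These ranks and shares count Cxcl12 by NM_001012477 alone. Its shorter transcript NM_021704, of 1873 bases against 5664, had 442, 332 and 270 raw counts in quadriceps against 927, 880 and 681. With its other transcripts Cxcl12 may rank higher in quadriceps, which was not tested. The summed RPKM was 56.5 to 64.0 in heart libraries and 33.3 to 50.3 in quadriceps libraries.

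**Figure D3:**
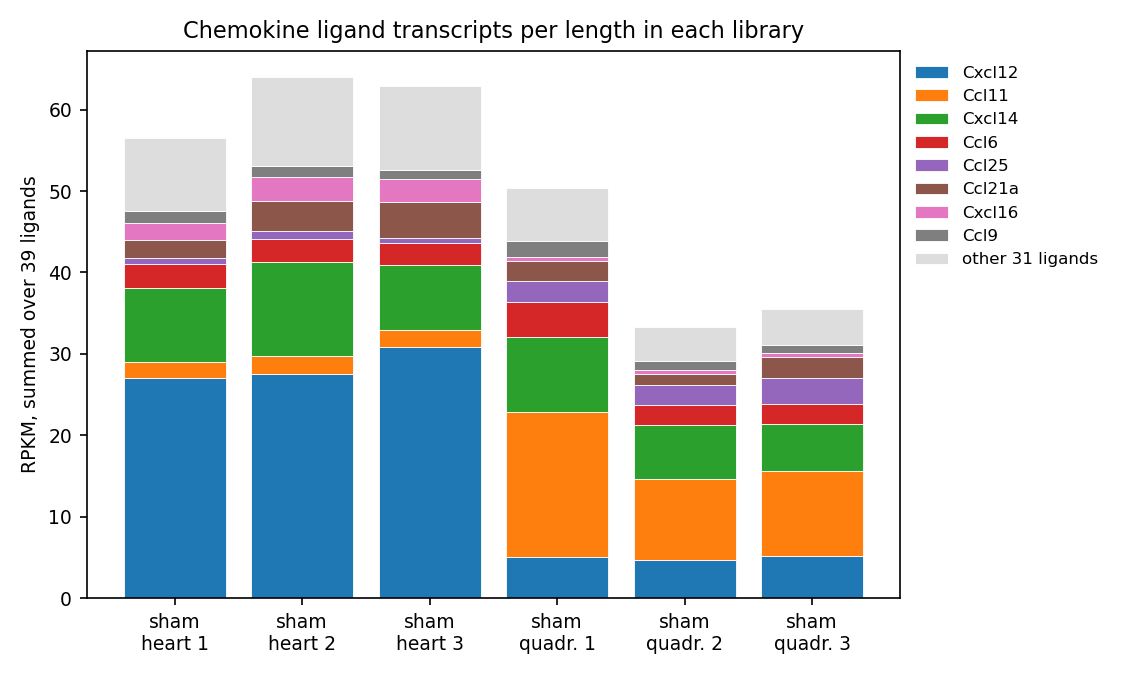
RPKM summed over the 39 chemokine ligands in each sham library, divided by ligand, each by its transcript with the highest summed count. Cxcl12 takes the largest part of each heart library and Ccl11 of each quadriceps library.

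The other ligands were scarcer. Next in quadriceps came Ccl6 with 3.09 ± 1.06 RPKM and Ccl25 with 2.72 ± 0.38, whose ranges overlap, then Ccl21a with 2.18 ± 0.71 and Ccl9 with 1.40 ± 0.48. In heart, Cxcl14 was followed by Ccl21a with 3.46 ± 1.18, Ccl6 with 2.85 ± 0.13 and Cxcl16 with 2.64 ± 0.46, which also overlap. A mean of at least 1 RPKM was reached by 11 ligands in heart and 7 in quadriceps. At the low end, 7 ligands had no count in any library: Ccl20, Ccl21b, Ccl21c, Ccl26, Ccl27b, Cxcl5 and Cxcl15. A count of 0 allows up to 3 counts, or 0.0782 to 0.128 CPM in these libraries. That limit may not hold for Ccl21b, Ccl21c and Ccl27b, whose near-identical copies leave their counts uncertain too. Another 5 had at most 3 counts in any library (Ccl1, Ccl19, Cxcl3, Cxcl17 and Xcl1). Ccl4, Ccl17, Ccl22 and Cxcl2 were also under the filter of more than 5 counts in 2 libraries. Sham quadriceps 1 alone held 12 counts of Ccl17 and 8 of Ccl22, ligands of Ccr4, and the other sham quadriceps libraries held at most 1.

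After the filter, 23 ligands were tested between the sham tissues. In quadriceps, 8 were higher and 6 lower than in heart at an adjusted p under 0.05, and 9 were not called (edgeR, adjusted over 24280 transcripts). Over all transcripts, 32.2% were higher and 34.4% lower. The study's criterion for higher expression in quadriceps asks for over 2 on the log2 scale and a p under 0.05, taken here before adjustment. By it 4 ligands were higher, against 7.00% of all transcripts. With the same limits applied here to lower levels, 3 were lower, against 8.64%. The median log2 fold change was 0.33 over the 23 ligands and -0.06 over all transcripts.

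**Figure D4:**
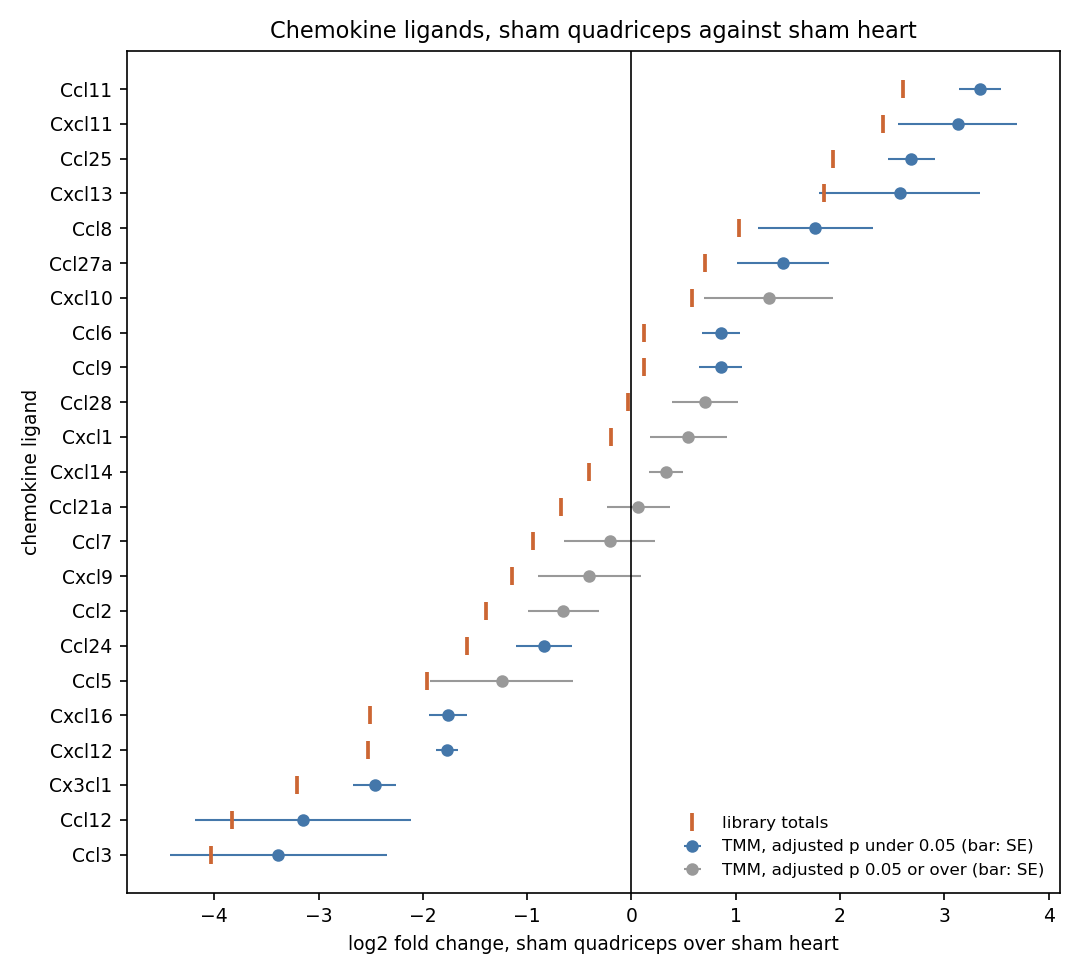
Log2 fold changes of sham quadriceps over sham heart for the 23 tested ligands, with TMM (circles, bars of 1 SE, blue where the adjusted p is under 0.05) and with library totals (vertical ticks). Ccl11 is at the top with 3.34 and Ccl3 at the bottom with -3.38, and each tick lies to the left of its circle.

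Among the ligands higher in quadriceps, Ccl11 had the most counts, with 799.3, 511.3 and 519.4 normalized counts in quadriceps and 56.5, 63.9 and 60.2 in heart, a log2 fold change of 3.34 (SE 0.20, adjusted p = 6.2e-07, edgeR). All quadriceps libraries lay above all heart libraries. Ccl25 had 119.5, 124.2 and 156.0 normalized counts in quadriceps and 19.8, 25.7 and 15.5 in heart, a log2 fold change of 2.68 (SE 0.23, adjusted p = 6.02e-06, edgeR), again with no overlap. Over all transcripts, 34.2% had every quadriceps library above every heart library, and 38.3% had every one below. With library totals both remained higher, by 2.61 and 1.94 on the log2 scale.

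Ccl9 and Ccl6, the neighbours on chromosome 11, had almost the same difference between the tissues. Ccl9 had 245.4, 176.8 and 144.2 normalized counts in quadriceps and 121.1, 103.5 and 91.2 in heart (log2 fold change 0.86, SE 0.20, adjusted p = 0.00467, edgeR). Ccl6 had 258.3, 172.4 and 162.0 against 114.5, 110.5 and 104.2 (log2 fold change 0.86, SE 0.19, adjusted p = 0.00266, edgeR). Neither pair of groups overlapped with TMM. With library totals the differences were 0.12 for both and the calls were lost (adjusted p = 0.665 and 0.631). The same sham quadriceps libraries entered both comparisons.

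The other ligands higher in quadriceps were near the limit of detection. Cxcl11, an interferon-inducible ligand of Cxcr3, had 17, 6 and 9 raw counts in quadriceps and 3, 1 and 3 in heart, 9.36 times as many per TMM-scaled library size (exact 95% interval 4.06 to 25.1, counting error only, adjusted p = 0.00099, edgeR). The annotation of the reference mouse calls Cxcl11 a polymorphic pseudogene, and the transcript counted, NR_038116, is non-coding. A coding transcript of Cxcl11, NM_019494, was listed with 17, 5 and 9 counts in quadriceps and 3, 1 and 2 in heart. Cxcl13, which draws B cells to follicles, had 6, 9 and 1 raw counts in quadriceps and 1, 1 and 3 in heart. That was 6.55 times as many in quadriceps (interval 2.29 to 22.9, again counting error only, adjusted p = 0.0148, edgeR). Its groups overlapped, as did those of Ccl8. Ccl8 had 13, 11 and 2 raw counts in quadriceps and 7, 4 and 4 in heart (log2 fold change 1.76, adjusted p = 0.0178, edgeR). Ccl27a, a skin chemokine that binds Ccr10, had 13, 16 and 4 raw counts against 7, 8 and 9 (log2 fold change 1.45, adjusted p = 0.0159, edgeR). Of these 4, the library totals kept the call of Cxcl11 (adjusted p = 0.00695) and lost those of Cxcl13, Ccl8 and Ccl27a. The call of Ccl27a was also lost without quadriceps library 2, and that of Ccl8 without heart library 2, quadriceps library 1 or quadriceps library 2. Cxcl13 fell under the filter without quadriceps library 1 or 2 and then had no test.

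Among the ligands lower in quadriceps, Cxcl12 had the most counts. Its longest transcript, NM_001012477, had 1191, 1286 and 1345 normalized counts in quadriceps and 4169, 4159 and 4704 in heart. The log2 fold change of that transcript was -1.77 (SE 0.10, adjusted p = 5.9e-07, edgeR). Cx3cl1, or fractalkine, a membrane-anchored chemokine of endothelial cells, had 25.7, 21.9 and 33.6 normalized counts in quadriceps and 151.9, 161.9 and 126.2 in heart. Its log2 fold change was -2.46 (SE 0.21, adjusted p = 6.23e-06, edgeR). Cxcl16, the other membrane-anchored member, had 51.4, 54.1 and 47.4 against 141.6, 196.6 and 182.3, a log2 fold change of -1.76 (SE 0.18, adjusted p = 2.35e-05, edgeR). The groups did not overlap for these 3 ligands, and with library totals each difference was larger.

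Ccl24, a second eotaxin that acts on Ccr3 like Ccl11, went the other way from Ccl11. It had 56.5, 29.2 and 37.5 normalized counts in quadriceps and 91.0, 60.4 and 72.4 in heart (log2 fold change -0.84, SE 0.27, adjusted p = 0.0209, edgeR). Its call was lost without heart library 1, quadriceps library 2 or quadriceps library 3 (adjusted p = 0.0756, 0.0692 and 0.0651). Ccl3, a macrophage chemokine that acts on Ccr1, had 0, 1 and 0 raw counts in quadriceps and 4, 10 and 12 in heart (adjusted p = 0.0169, edgeR). Heart held 12.7 times as many Ccl3 counts per TMM-scaled library size, with an exact 95% interval of 2.09 to 520.7. This interval and that of Ccl12 hold counting error only, not the spread between libraries. Ccl12, a monocyte chemokine, had 1, 0 and 1 raw counts in quadriceps and 14, 24 and 3 in heart, 10.01 times as many (interval 2.60 to 85.5, adjusted p = 0.0229, edgeR). Both calls were lost without quadriceps library 1 (adjusted p = 0.0642 and 0.0597), and that of Ccl12 also without quadriceps library 2 (adjusted p = 0.0703). Ccl3 fell under the filter without heart library 2 or 3, and Ccl12 without heart library 1 or 2, so they had no test there.

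The 9 ligands that were not called included the inflammatory monocyte chemokine Ccl2, with 12.8, 13.1 and 23.7 normalized counts in quadriceps and 19.1, 25.7 and 30.9 in heart (log2 fold change -0.65, adjusted p = 0.120, edgeR). Cxcl9 had 101.5, 64.3 and 53.3 in quadriceps and 30.8, 141.7 and 122.9 in heart, where heart library 1 stood below all others (log2 fold change -0.40, adjusted p = 0.487, edgeR). Without that library Cxcl9 was called lower in quadriceps (adjusted p = 0.0227). Ccl21a had 89.9, 57.0 and 106.7 against 51.4, 84.1 and 105.0 (log2 fold change 0.07, adjusted p = 0.856, edgeR), and Cxcl14 had 700.3, 578.5 and 481.9 against 450.5, 557.8 and 393.9 (log2 fold change 0.33, adjusted p = 0.104, edgeR). Both tissues overlapped for these 4 genes. Ccl5, Ccl7, Ccl28, Cxcl1 and Cxcl10 had log2 fold changes from -1.25 to 1.32 and adjusted p values from 0.0747 to 0.686 (edgeR). Of the neutrophil attractants with the ELR motif, Cxcl1 alone of 5 had enough counts to be tested.

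Library totals moved the median of all transcripts to -0.80 on the log2 scale. With them, 3241 of 24280 transcripts were called higher in quadriceps and 15203 lower. Among the ligands, 3 were then higher and 8 lower. The 3 were Ccl11, Ccl25 and Cxcl11. Cxcl12, Cx3cl1, Cxcl16, Ccl24, Ccl3 and Ccl12 stayed lower, and Ccl2 and Ccl5 joined them (adjusted p = 0.00559 and 0.0239, edgeR).

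Cxcl12 was counted on 3 RefSeq transcripts. The gene lies on the plus strand of chromosome 6, from 117168535 to 117181367 in GRCm38. The longest transcript, NM_001012477, shares 3129 of its 5627 annotated exonic bases with the others. NM_013655 has no exonic base of its own, and the short NM_021704, which ends upstream of the others, has 1530. In heart, NM_021704 had 978, 978 and 1022 raw counts, or 17.1% ± 0.68 (SD, n = 3) of the count of NM_001012477. In quadriceps it had 442, 332 and 270, or 41.7% ± 5.28. This ratio of the counts was thus larger in each quadriceps library, 37.7% to 47.7%, than in each heart library, 16.3% to 17.7%. The log2 fold change of -1.77 given above is that of NM_001012477 alone, and the tissue difference of NM_021704 was smaller. NM_013655 stood at 64.6% ± 0.82 in heart and 79.2% ± 0.74 in quadriceps. These ratios do not depend on the scaling between libraries, but reads on shared exons count for more than 1 transcript. The exact two-sided permutation p was 0.1 for both, the smallest that 3 against 3 libraries allow.

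**Figure D5:**
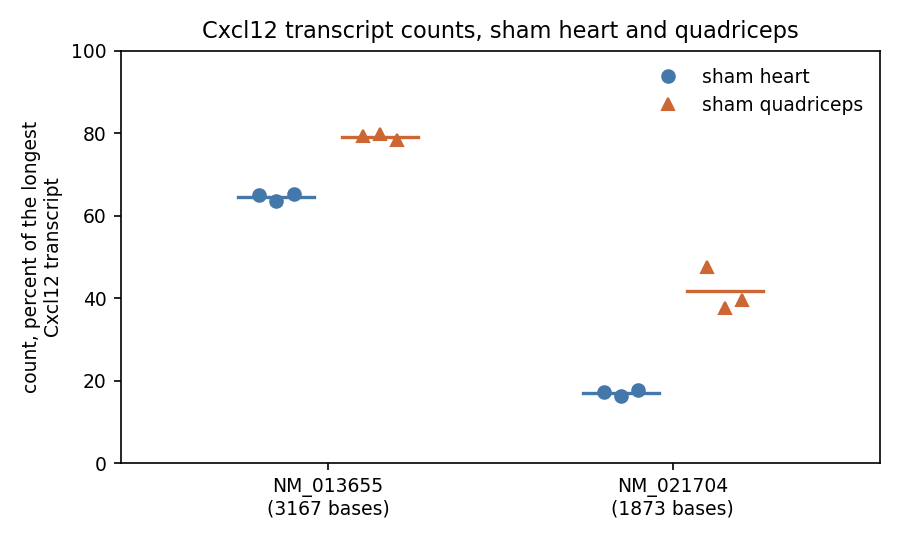
Counts of the Cxcl12 transcripts NM_013655 and NM_021704 as a percentage of the count of NM_001012477, in each sham heart library (circles) and sham quadriceps library (triangles), with bars at group means (n = 3). Quadriceps libraries lie above all heart libraries for both transcripts.

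The receptors of these ligands were also measured in the tissue table. Of 19 signalling chemokine receptors, 10 passed the filter, 2 of them were higher and 4 lower in quadriceps, and their median log2 fold change was -1.05 (edgeR). Cx3cr1, the receptor of Cx3cl1, had 5, 5 and 10 raw counts in quadriceps and 172, 206 and 157 in heart (log2 fold change -3.67, SE 0.31, adjusted p = 6.00e-06, edgeR), so ligand and receptor were both lower in quadriceps. Cxcr4, the receptor of Cxcl12, had 42, 46 and 22 against 182, 177 and 193 (log2 fold change -1.31, SE 0.19, adjusted p = 0.000252, edgeR). Ackr3, the atypical receptor that takes up Cxcl12, had 389, 205 and 181 against 2398, 2280 and 1835 (log2 fold change -2.06, SE 0.18, adjusted p = 7.18e-06, edgeR). By its longest transcript Cxcl12 was thus lower in quadriceps, and so were both of its receptors.

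Ccr9, the receptor of Ccl25, was higher in quadriceps like its ligand, but on 8, 6 and 4 raw counts against 1, 2 and 3 (log2 fold change 2.51, adjusted p = 0.00306, edgeR). Ccr2, the receptor of Ccl2, Ccl7 and Ccl12, had 132, 30 and 58 against 63, 89 and 38 and was called higher (log2 fold change 1.24, adjusted p = 0.0283, edgeR), a call that the library totals did not keep (adjusted p = 0.358). Ccr10, a receptor of Ccl27a and Ccl28, was lower (log2 fold change -2.03). Ccr3, the receptor of Ccl11 and Ccl24, had at most 1 count in any library. Of 5 atypical receptors in the table, 2 were higher and 3 lower in quadriceps. Ackr1, found on venules and red cell precursors, was higher with 30, 12 and 11 raw counts against 4, 3 and 4 (log2 fold change 3.22), and Ackr4, a scavenger of Ccl21 and Ccl25, was lower with 44, 26 and 22 against 296, 282 and 219 (-2.08). Outside the symbol rule, the platelet chemokine Ppbp was lower in quadriceps (-2.01, adjusted p = 0.0350, edgeR). That call rests on 3, 1 and 6 raw counts in quadriceps against 51, 15 and 19 in heart. Pf4 was higher in quadriceps (0.61, adjusted p = 0.0138, edgeR), but not with library totals.

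Cell markers and inducers were read from the same fit. All 9 endothelial markers were lower in quadriceps, with summed normalized counts of 6218 to 7243 against 19301 to 20734 in heart and a median log2 fold change of -1.43. Of 16 macrophage markers tested, 11 were lower and none higher, with a median of -0.80, whereas Ccl6 and Ccl9 were higher with TMM. Of 9 fibroblast markers, 5 were lower and none higher. Of 6 adipocyte markers, 5 were higher and 1 lower, Lpl (-1.80), and Adipoq differed among the sham quadriceps libraries from 94 to 1183 raw counts. Of 16 targets or subunits of NF-kappaB and interferon signalling, 1 was higher and 11 lower. Of 11 inflammatory cytokines tested, 3 were higher and 5 lower, led by Tgfb1 (-2.95) and Csf1 (-2.95), and of 8 proteases that trim or shed chemokines, 2 were higher and 4 lower, among them the sheddase Adam17 (-1.22). Lymphocyte and dendritic markers were low in both tissues, with sums of 29.4 to 50.7 normalized counts in heart and 13.1 to 33.6 in quadriceps, and 2 of 6 tested were lower. Of 10 neutrophil markers, 3 were tested and 1 was lower, and 4 of 7 mural cell markers were lower and 1 higher. None of the endothelial, macrophage or fibroblast markers was at 0 in all libraries. The part of cell makeup in the ligand differences was not tested.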

How the data were processed

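Polyadenylated RNA of 9 libraries was sequenced (single-end reads). Per the paper's methods, adapters and low-quality bases were removed by Trim Galore and reads mapped to mm10 by STAR. The authors deposited raw counts on RefSeq transcripts from Rsubread and RPKM values, which scale the counts by transcript length and library total. Their own fold changes and p-values from edgeR were not used. In 111 rows of the TAC table these belong to another transcript than the counts. A single column, the RPKM of TAC library 4, was not used.

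Counts were tested with edgeR 4.0.16 (quasi-likelihood, TMM, Benjamini-Hochberg) in R 4.3.3 after the study's filter (over 5 counts, 2 or more libraries), with the transcript of the highest summed count for each gene. Totals were recovered from counts, RPKM and lengths. Values in every library are given for ligands called in either comparison, tested in both, or among the 12 with the highest mean count of a table. From other lists up to 3 genes were named, and up to 6 receptors; a called receptor is not reported here. Ligands, lists and alternatives were chosen with earlier results of these data known. Ccr3, Adipoq, Lpl, Ccl17 and Ccl22 were named after their values were seen. Alternatives were DESeq2 1.42.0, its size factors, library totals, other filters, thresholds and transcript choices, limma 3.58.1 on log2 RPKM, leaving out each library, and the replicate number as a block. TMM on the 5 libraries with totals and the 4 libraries of the block without it were chosen after seeing the data. The procedure was tested on simulated data. No pair of replicates agreed within sampling noise. Sequences are from RefSeq. Python 3.11.15 with pandas 2.3.3 and scipy 1.17.1 was used.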

Additional observations from a re-analysis of the deposited data

How the results depend on the processing

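In the TAC comparison, 2 ligands were lower at an adjusted p under 0.05. That number was 7 with library totals and 7 when limma was run on log2 values of RPKM plus 0.5, 1 or 0.1, all on 5 libraries. It ranged from 0 to 3 when each library was left out in turn, with 0 without sham library 1 and 1 without sham library 2. By the study's criterion 3 ligands were lower, 6 with library totals, 0 with limma and a pseudocount of 1, and 6 with a pseudocount of 0.1. Over all 586 genes the calls went from 104 higher and 70 lower to 20 higher and 180 lower with library totals, and to 16 to 17 higher and 192 to 199 lower with limma. They went to 25 and 35 without sham library 1, to 35 and 48 without sham library 2 and to 34 and 38 without sham library 3. They were 62 and 63 without TAC library 1, and 65 and 71 without TAC library 4. By the criterion, 67 and 74 became 20 and 175 with library totals, 9 and 90 with limma and a pseudocount of 0.5, 7 and 55 with 1, and 17 and 161 with 0.1. Between the sham tissues, 8 ligands were higher, and the number was 3 with library totals, 3 with each limma setting, 4 with at least 10 counts in every library, and 5 to 9 with each library left out, 5 without quadriceps library 2. By the study's criterion 4 ligands were higher, 2 with library totals, 2 with at least 10 counts and 1 with each limma setting. The 3 lower ligands by the same limits became 5 with library totals, 1 with at least 10 counts, 1 with limma and a pseudocount of 0.5 or 1, 1 to 3 with each library left out (1 without heart library 2), and 5 with a threshold of 1 on the log2 scale. Over all 24280 transcripts, library totals gave 3241 higher and 15203 lower in place of 7828 and 8354, and limma gave 3194 to 3218 higher and 15319 to 15365 lower. With 1 transcript per gene 4744 and 5059 were called, of 14906 tested. By the criterion, 1699 and 2097 became 1136 and 4171 with library totals, 861 and 839 with at least 10 counts in every library, and 419 to 801 higher and 903 to 2609 lower with limma. No direction of a called ligand was reversed under any alternative run. Leaving out 1 library added calls for Ccl21a (without TAC library 2) and Ccl6 (without TAC library 1) in the TAC comparison, and for Ccl28 (without heart library 1) and Cxcl14 (without heart library 2 or quadriceps library 3) between the tissues. With DESeq2, 3 ligands were lower after TAC, and 8 higher and 6 lower between the tissues.

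Same-numbered libraries did not deviate together (r from -0.159 to 0.0821), so the numbers were not taken as pairs. With the replicate number as a block, on 4 libraries, 1 ligand was lower after TAC, and 1 on the same 4 libraries without the block. Over all genes the block gave 56 higher and 62 lower, against 49 and 39 without it. The calls of Ccl3, Ccl12, Cxcl13 and Cxcl11 rest on at most 3 counts in every library of 1 tissue, so depth limits them.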
